A study of Mus musculus with 24 samples.

Results

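A set of 10 genes of ferroptosis defence and iron storage was followed in 24 D4M tumours, D4M being a mouse melanoma line, and all 10 were found by symbol among the 55414 genes of the count table. They were Gpx4 (ENSMUSG00000075706), Aifm2 (ENSMUSG00000020085), Acsl4 (ENSMUSG00000031278), Slc7a11 (ENSMUSG00000027737), Gch1 (ENSMUSG00000037580), Lpcat3 (ENSMUSG00000004270), Fth1 (ENSMUSG00000024661), Ftl1 (ENSMUSG00000050708), Tfrc (ENSMUSG00000022797) and Nfe2l2 (ENSMUSG00000015839). They share a function by which they were picked, with earlier results of these data known, and no measured value enters the rule. The tumours were grown in C57BL/6 wild-type mice, with 6 biological replicates in each of 4 groups. Mice of the IgG2a group received an IgG2a antibody by intraperitoneal injection, and mice of the PD-1 group an antibody that blocks PD-1, an inhibitory receptor of T cells. The BRQ+IgG2a and BRQ+PD-1 groups received the same antibodies together with brequinar (BRQ), an inhibitor of dihydroorotate dehydrogenase (DHODH), the mitochondrial enzyme of pyrimidine synthesis. For the age and sex of the mice, the dose and the day of collection, values were not given in the sources used here. Nor was it stated whether each tumour came from a separate mouse, and the tests treat the tumours as independent. Every tumour came from the same line, and p-values measure the spread between the tumours of a group.

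Ferroptosis is a form of cell death in which iron drives the peroxidation of polyunsaturated fatty acids in membrane phospholipids. GPX4 reduces phospholipid hydroperoxides with glutathione, whose cysteine enters the cell as cystine through the SLC7A11 transporter. In parallel, AIFM2 (FSP1) and DHODH regenerate reduced quinones that trap lipid radicals, and GCH1 opens the synthesis of the radical-trapping cofactor tetrahydrobiopterin. ACSL4 and LPCAT3 load polyunsaturated fatty acids into phospholipids. The transferrin receptor TFRC brings iron in, ferritin built from FTH1 and FTL1 chains stores it, and NFE2L2 (NRF2) is the transcription factor of many antioxidant and iron genes.

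Library totals ran from 19106205 to 34282319 counts. Values are CPM, the usual depth-scaled counts taken on TMM-scaled library totals; before that scaling, 1 CPM rested on 19.1 to 34.3 counts. In 4 tumours (IgG2a replicates 2 and 3, PD-1 replicate 6, BRQ+IgG2a replicate 4) skeletal muscle transcripts were abundant: their 15 muscle genes summed to 13049 to 51351 CPM, against 3.05 to 1541 CPM in the other 20. No BRQ+PD-1 tumour was among them. Of 8 melanocyte markers, Mitf was the only one above a mean of 1 CPM (11.4 to 51.9 CPM per tumour). Tyr and Dct had no counts in any library, which allows at most 0.157 CPM in the smallest library (3 counts, counting error only), and Mlana, Tyrp1 and Mc1r lay under 0.1 CPM in every group, and Pmel and Sox10 did not exceed 1.48 CPM in any tumour, so pigment cell markers other than Mitf were at or near 0. Some immune markers moved with brequinar. In its main effect 8 of 12 T cell markers were called higher (median log2 fold change 1.26), as were 3 of 8 dendritic cell markers. Of 12 macrophage markers 2 were called higher and 1 lower, and of 10 proliferation genes 1 was called lower (median -0.17, with 1 of 10 positive). None of the 9 neutrophil and 5 B cell markers tested was called, where 12.5% of all genes tested were. Of the 2 melanocyte markers tested 1 was called higher, and Mitf had means of 22.8 CPM with brequinar and 14.1 without. The T cell markers summed to 24.6 to 187 CPM with brequinar and 14.6 to 79.0 without, and their part in the results on the 10 genes and their pathways was not tested. In such bulk tissue a smaller number of cells of a type and less RNA per cell cannot be told apart.

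None of the 10 genes was called different between any of the groups compared, at an adjusted p under 0.05 by edgeR's quasi-likelihood test over the 16029 genes tested; all 10 passed the expression filter. For BRQ+IgG2a against IgG2a the count was 0 of 10, where 3.46% of all genes tested were called. For BRQ+PD-1 against IgG2a it was 0 of 10 beside 3.91%, and for BRQ+PD-1 against PD-1 0 of 10 beside 5.04%. PD-1 differed from IgG2a in 0 of 10 and in 0.0187% of all genes, and BRQ+PD-1 from BRQ+IgG2a in 0 of 10 and in 0% of all genes. The brequinar main effect, the mean of the 12 tumours with brequinar against the 12 without, called 0 of 10, while it called 12.5% of all genes. The interaction, which asks whether the brequinar effect differed with the antibody, called 0 of 10 and 0% of all genes.

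At an unadjusted p under 0.05 by edgeR, 1 of the 10 passed in each of these comparisons except PD-1 against IgG2a, where none did. Over all genes that share was 14.8% for BRQ+IgG2a, 6.46% for PD-1 and 23.3% for BRQ+PD-1 against IgG2a, 21.4% for BRQ+PD-1 against PD-1, 7.29% for BRQ+PD-1 against BRQ+IgG2a, 27.7% for the main effect and 7.62% for the interaction, so 1 of 10 lay near or below it. DESeq2 called none of the 10 in any comparison, where it called, in the same order, 5.55%, 0.169%, 9.81%, 8.78%, 0.031%, 16.6% and 0.0687% of all genes. Limma voom with quality weights called 1 in BRQ+IgG2a against IgG2a, 1 in BRQ+PD-1 against IgG2a, 2 in BRQ+PD-1 against PD-1, 1 in BRQ+PD-1 against BRQ+IgG2a and 2 in the main effect. By that tool 13.2%, 9.08%, 13.7%, 3.87% and 23.7% of all genes were called in those comparisons, in that order. In PD-1 against IgG2a and in the interaction it called none of the 10, beside 0.0561% and 1.7% of all genes. With only 10 genes, such counts were not read as a result about the set. The median log2 fold change of the 10 in the main effect was -0.02, against 0.01 over all genes tested. It was 0.08 for BRQ+IgG2a against IgG2a (all genes -0.01) and -0.05 for BRQ+PD-1 against PD-1 (all genes 0.01). The values of the groups overlapped for each of the 10 genes in every comparison. Over all genes tested, values without overlap were found in 1.8% for BRQ+IgG2a against IgG2a, 0.493% for PD-1 against IgG2a, 2.42% for BRQ+PD-1 against IgG2a, 2.86% for BRQ+PD-1 against PD-1, 0.225% for BRQ+PD-1 against BRQ+IgG2a and 0.143% for the main effect.

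**Figure D1:**
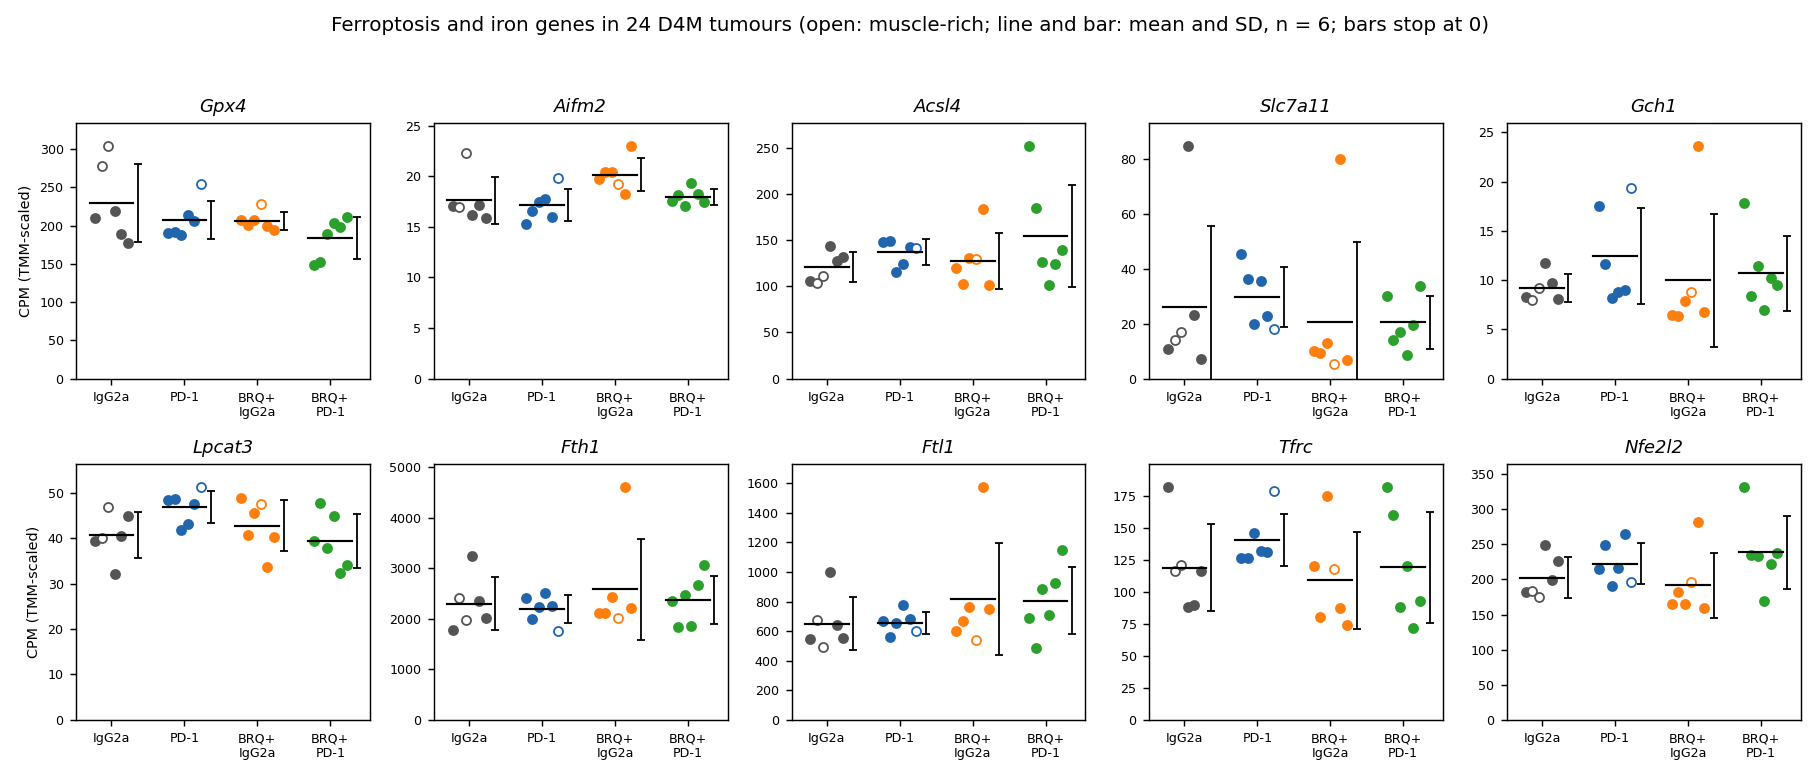
CPM (linear axis from 0) of each gene in each tumour, 1 point per tumour in order of replicate number, with the mean and SD of 6 tumours; open points are the muscle-rich tumours. The groups overlap in every panel, and 1 IgG2a tumour (84.7 CPM) and 1 BRQ+IgG2a tumour (79.9 CPM) stand far above the others in Slc7a11.

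**Figure D2:**
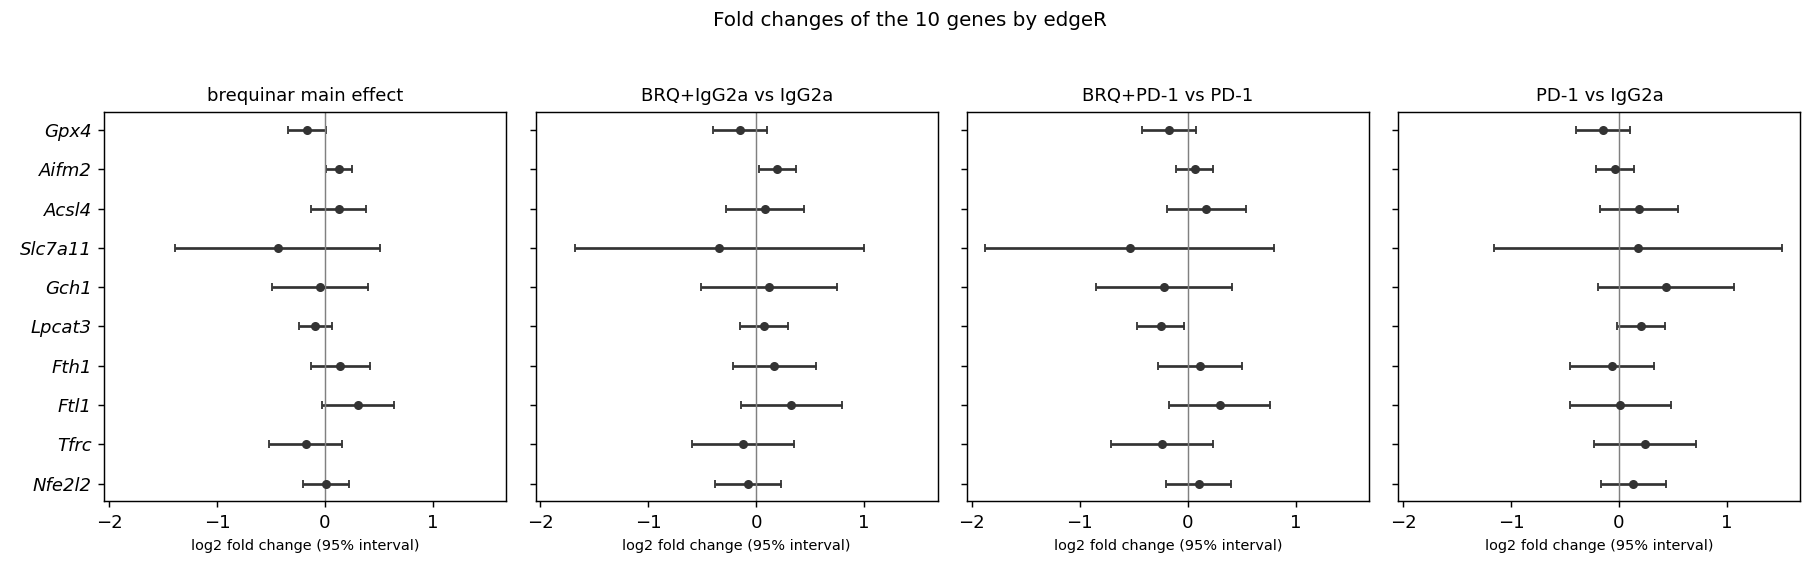
Log2 fold changes from edgeR with 95% intervals for the 10 genes in 4 of the comparisons. The intervals are narrowest for Aifm2 and widest for Slc7a11, whose main effect ran from -1.39 to 0.51.

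Levels differed far more between genes than between groups. Per kilobase of merged exon, Fth1 stood at a mean of 681 CPM and Ftl1 at 547, each above 99.7% of the genes tested. Gpx4 followed at 120 CPM per kilobase, Nfe2l2 at 56.3, Acsl4 at 25.0, Tfrc at 19.7 and Lpcat3 at 13.0. Aifm2 (4.42), Slc7a11 (1.74) and Gch1 (1.69) were the lowest on this scale. Ferritin chains were thus the most abundant transcripts of the set, and the quinone reductase Aifm2 was far below the peroxidase Gpx4. The spread within groups also differed between the genes: the SD of log2 CPM was 0.13 for Aifm2, larger than for 8.40% of all genes, and 1.03 for Slc7a11, larger than for 94.99% of them, with a median of 0.28 over all genes.

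Gpx4, the glutathione-dependent peroxidase at the centre of ferroptosis defence, ran from 178 to 304 CPM in IgG2a (median 214), 188 to 255 in PD-1 (median 199), 194 to 228 in BRQ+IgG2a (median 204) and 148 to 212 in BRQ+PD-1 (median 194). The highest 3 values came from muscle-rich tumours, 278 and 304 CPM in IgG2a and 255 in PD-1. BRQ+PD-1 was below IgG2a by a log2 fold change of -0.32 ± 0.12 (SE; adjusted p = 0.117 by edgeR), with 6 of 6 tumours under the IgG2a mean; without the muscle-rich tumours it was -0.13 (adjusted p = 0.569). The main effect was -0.17 ± 0.08 (adjusted p = 0.209), and its 95% interval allowed a fold of 0.789 to 1.01. Without the muscle-rich tumours BRQ+IgG2a against IgG2a was 0.01 in place of -0.16, neither being called. Reads of Gpx4 may be shared with the processed pseudogene Gpx4-ps2, which had a mean of 9.55 CPM.

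Aifm2 encodes the quinone reductase of the pathway parallel to DHODH. It lay at 15.9 to 22.3 CPM in IgG2a (median 17.0), 15.3 to 19.9 in PD-1 (median 17.0), 18.3 to 23.0 in BRQ+IgG2a (median 20.05) and 17.1 to 19.3 in BRQ+PD-1 (median 17.9). All 6 BRQ+IgG2a tumours exceeded the IgG2a mean, and 5 of the 6 IgG2a tumours lay under every BRQ+IgG2a tumour; the remaining one was muscle-rich replicate 3. BRQ+IgG2a against IgG2a was 0.20 ± 0.08 on the log2 scale (adjusted p = 0.248 by edgeR), and the main effect was 0.13 ± 0.06 (adjusted p = 0.147), with 11 of 12 tumours above the mean of those without brequinar. This main effect was called without IgG2a replicate 3 (0.16, adjusted p = 0.0496), without the 4 muscle-rich tumours (0.19, adjusted p = 0.0287) and by limma voom (0.18, adjusted p = 0.00869), so its call depended on those settings. The interval of the main effect over all 24 tumours reached from 1.01-fold to 1.19-fold. BRQ+PD-1 lay below BRQ+IgG2a by -0.17 ± 0.08 (adjusted p = 0.665 by edgeR).

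Gch1, the rate-limiting enzyme of tetrahydrobiopterin synthesis, had the lowest mean of the 10 per kilobase, close to Slc7a11 (1.69 and 1.74 CPM). Slc7a11 was the lower of these in BRQ+IgG2a (1.49 against 1.59) and BRQ+PD-1 (1.47 against 1.71). In CPM, Gch1 was as follows. It ran from 7.97 to 11.7 CPM in IgG2a (median 8.76), 8.21 to 19.4 in PD-1 (median 10.3), 6.31 to 23.6 in BRQ+IgG2a (median 7.31) and 6.95 to 17.8 in BRQ+PD-1 (median 9.87). The top value was BRQ+IgG2a replicate 5, whose next neighbour in its group had 8.75 CPM. The main effect was -0.05 ± 0.21 (adjusted p = 0.908 by edgeR), with a 95% interval from 0.71-fold to 1.32-fold. Dhodh itself, the target of brequinar, averaged 13.8 ± 1.88 CPM (SD, n = 6) under IgG2a alone and 12.5 ± 1.18 when brequinar was added, 12.9 ± 0.955 under PD-1 alone and 12.5 ± 2.14 when brequinar was added, and was not called. Among the 11 genes tested of a list of tetrahydrobiopterin and quinone enzymes, none was called in any comparison by edgeR; at an unadjusted p under 0.05 there were 4 of 11 in the main effect, near the 27.7% of all genes. The most abundant of that list, Vkorc1l1, a quinone reductase of the vitamin K cycle, had means between 57.6 and 61.9 CPM.

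Slc7a11, the cystine importer, varied most. IgG2a tumours ran from 7.28 to 84.7 CPM (median 15.5), PD-1 from 18.0 to 45.2 (median 29.1), BRQ+IgG2a from 5.18 to 79.9 (median 9.75) and BRQ+PD-1 from 8.46 to 33.7 (median 18.3). IgG2a replicate 4 and BRQ+IgG2a replicate 5 held the 2 highest values, and the next highest in their groups were 23.3 and 12.9 CPM. The main effect was -0.44 ± 0.45 (adjusted p = 0.563 by edgeR), and its interval from 0.383-fold to 1.42-fold was the widest of the 10 genes. One library or another decided the value: without BRQ+IgG2a replicate 5 it was -1.05 (adjusted p = 0.0495), and without IgG2a replicate 4 it was -0.02 (adjusted p = 0.983).

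Chac1, a glutathione-degrading enzyme, was the called neighbour of Slc7a11 in the cystine and glutathione list. It ran from 10.1 to 40.9 CPM in IgG2a (median 24.2), 10.2 to 43.9 in PD-1 (median 22.2), 4.42 to 16.8 in BRQ+IgG2a (median 7.25) and 6.62 to 12.7 in BRQ+PD-1 (median 8.75). Both genes are textbook targets of the amino acid stress factor ATF4, and their promoters are shown because both carry the core of its binding element, TGATGNAA (capitals; searched on both strands, the reverse complement being TTNCATCA). The sequences are the 250 bases before the start site, 5′ to 3′ on the gene's strand, from RefSeq on GRCm38.p6, at chr3:50443614-50443863 (minus strand) for Slc7a11 and chr2:119350992-119351241 (plus strand) for Chac1.
Slc7a11: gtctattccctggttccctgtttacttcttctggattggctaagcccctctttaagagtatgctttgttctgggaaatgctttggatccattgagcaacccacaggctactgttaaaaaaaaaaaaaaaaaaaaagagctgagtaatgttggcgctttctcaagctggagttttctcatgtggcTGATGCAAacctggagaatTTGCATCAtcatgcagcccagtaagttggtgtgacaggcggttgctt
Chac1: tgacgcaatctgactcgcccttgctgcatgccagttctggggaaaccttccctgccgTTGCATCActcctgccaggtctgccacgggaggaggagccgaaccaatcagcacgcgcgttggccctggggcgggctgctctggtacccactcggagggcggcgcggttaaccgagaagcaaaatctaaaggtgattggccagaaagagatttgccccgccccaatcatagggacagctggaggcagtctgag
In Slc7a11 the core stood 66 bases before the start, and again on the opposite strand 47 bases before it; in Chac1 it stood 193 bases before, on the opposite strand. Of 32851 promoter windows of 300 bases (250 before to 50 after the start), 3.97% held the core and 0.07% held it 2 or more times. All 10 genes matched the table, with 15 windows, and only the Slc7a11 window held it. The antioxidant response core TGACNNNGC, which the NFE2L2 protein binds, was in 1 of the 15 windows, that of Nfe2l2 itself, and in 12.4% of all windows; the 2 motifs share the letters TGA. Such matches describe letters and no binding was measured.

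Chac1 was lower in the main effect by -1.42 ± 0.26 on the log2 scale (adjusted p = 0.00133 by edgeR), with 12 of 12 brequinar tumours under the mean of the others, and leaving out any 1 library kept the call. Cth, which makes cysteine from cystathionine, was lower by -0.99 ± 0.24 (adjusted p = 0.00867), at means of 8.39 against 16.7 CPM. These were the 2 called of 10 tested genes in the cystine and glutathione list, where 5.57% of all genes tested were lower; the list's median was -0.08. Chac1 was also called in 3 pairwise comparisons, BRQ+IgG2a against IgG2a (-1.37 ± 0.37, adjusted p = 0.0397), BRQ+PD-1 against IgG2a (-1.30 ± 0.37, adjusted p = 0.0480) and BRQ+PD-1 against PD-1 (-1.48 ± 0.37, adjusted p = 0.0227). The first of these calls held in 3 of 12 fits that left out 1 library of the groups compared, the second in 2 of 12 and the third in 10 of 12, and without the muscle-rich tumours the first 2 had adjusted p-values of 0.167 and 0.153. Whether Chac1 and Slc7a11 differed from each other in their response was not tested. Slc3a2, the partner chain of the SLC7A11 transporter and the most abundant of the list, had means of 265, 286, 246 and 229 CPM in IgG2a, PD-1, BRQ+IgG2a and BRQ+PD-1 and was not called.

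On the side of the lipid substrate, Acsl4, which activates arachidonic acid for membrane lipids, ran from 103 to 144 CPM in IgG2a (median 119), 115 to 149 in PD-1 (median 142), 101 to 184 in BRQ+IgG2a (median 124) and 101 to 252 in BRQ+PD-1 (median 133). The 2 tumours above 183 CPM in BRQ+PD-1 and the 1 in BRQ+IgG2a carried the higher means of those groups. BRQ+PD-1 against IgG2a was 0.36 ± 0.17 (adjusted p = 0.217 by edgeR), and the main effect was 0.13 ± 0.12 (adjusted p = 0.522; -0.03 by limma voom). Without BRQ+PD-1 replicate 1 these were 0.15 and 0.02, and without BRQ+IgG2a replicate 5 the main effect was 0.06. Lpcat3, which places such acyl chains into phospholipids, was steadier, at 32.2 to 46.9 CPM in IgG2a (median 40.3), 41.9 to 51.2 in PD-1 (median 48.1), 33.6 to 48.8 in BRQ+IgG2a (median 43.2) and 32.4 to 47.8 in BRQ+PD-1 (median 38.6). All 6 PD-1 tumours lay above the IgG2a mean, a difference of 0.20 ± 0.11 (adjusted p = 0.770 by edgeR). BRQ+PD-1 against PD-1 was -0.25 ± 0.11 (adjusted p = 0.170 by edgeR; -0.31, adjusted p = 0.0166 by limma voom). The interaction was -0.32 ± 0.15 (adjusted p = 0.636 by edgeR), the only one of the 10 interactions at an unadjusted p under 0.05. The 10 proliferation genes had a median of -0.32 in BRQ+PD-1 against PD-1, where 1 was called (lower), beside 5.04% of all genes called. Their median was -0.31 in the interaction and 0.17 in PD-1 against IgG2a, and their part in the Lpcat3 values was not tested. Of the 25 genes tested in the polyunsaturated lipid list, Agpat3 (-0.15 ± 0.04, adjusted p = 0.0276) and Pla2g6 (-0.29 ± 0.09, adjusted p = 0.0399), an acyltransferase and a phospholipase, were lower in the main effect, but neither was called without the muscle-rich tumours (adjusted p = 0.0584 and 0.179). Leaving out 1 library at a time kept the call in 23 of 24 and 12 of 24 fits. Acsl1, an acyl-CoA synthetase outside the naming rule, was called in that fit for BRQ+IgG2a against IgG2a (0.75 ± 0.17, adjusted p = 0.0122 by edgeR) and in the main effect (0.43 ± 0.11, adjusted p = 0.0192).

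The ferritin genes were the most abundant of the set and moved together from tumour to tumour. Fth1, the heavy chain with ferroxidase activity, ran from 1771 to 3245 CPM in IgG2a (median 2184), 1750 to 2515 in PD-1 (median 2246), 2005 to 4604 in BRQ+IgG2a (median 2163) and 1829 to 3065 in BRQ+PD-1 (median 2418). Ftl1, the light chain, ran from 495 to 997 CPM in IgG2a (median 598), 559 to 778 in PD-1 (median 661), 542 to 1574 in BRQ+IgG2a (median 708) and 488 to 1147 in BRQ+PD-1 (median 797). For both, the highest tumour of IgG2a was replicate 4 and that of BRQ+IgG2a was replicate 5, the same pair that was highest in Slc7a11. The main effect of Ftl1 was 0.31 ± 0.16 (adjusted p = 0.209 by edgeR; 0.31, adjusted p = 0.0364 by limma voom), with 9 of 12 brequinar tumours above the mean of the others and an interval from 0.984-fold to 1.56-fold; without BRQ+IgG2a replicate 5 it was 0.16. For Fth1 it was 0.14 ± 0.13 (adjusted p = 0.511 by edgeR), with 6 of 12 tumours above that mean; without IgG2a replicate 4 it was 0.20 and without BRQ+IgG2a replicate 5 it was 0.01. Reads of Ftl1 may be shared with the pseudogene Ftl1-ps1, which had 2571 counts over the 24 libraries.

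Tfrc, the receptor that takes up transferrin-bound iron, ran from 88.0 to 182 CPM in IgG2a (median 116), 127 to 179 in PD-1 (median 131), 73.9 to 175 in BRQ+IgG2a (median 102) and 71.7 to 182 in BRQ+PD-1 (median 106). The main effect was -0.18 ± 0.16 (adjusted p = 0.491 by edgeR), with 3 of 12 brequinar tumours above the mean of the others. It was -0.10 without IgG2a replicate 1 and -0.28 without BRQ+IgG2a replicate 3. PD-1 against IgG2a was 0.24 ± 0.23 (adjusted p = 0.904), with 6 of 6 tumours above the IgG2a mean although the groups overlapped. Nfe2l2, the antioxidant transcription factor, ran from 174 to 249 CPM in IgG2a (median 192), 190 to 264 in PD-1 (median 216), 159 to 282 in BRQ+IgG2a (median 174) and 169 to 332 in BRQ+PD-1 (median 235). BRQ+PD-1 exceeded BRQ+IgG2a by 0.31 ± 0.15 (adjusted p = 0.665 by edgeR; 0.40, adjusted p = 0.0327 by limma voom), which was 0.20 without BRQ+PD-1 replicate 1 and 0.46 without BRQ+IgG2a replicate 5. The main effect was 0.01 ± 0.10 (adjusted p = 0.955). That mRNA level is not the activity of the protein, which is set largely by its breakdown.

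Around the 10 genes, the list of other iron handling genes held most of the called changes. It is the longest of the 5 lists, all chosen with earlier results of these data known. In the main effect 5 of 28 tested were higher and 2 lower, where 6.91% of all genes were higher and 5.57% lower. The median of the list was 0.01. At an unadjusted p under 0.05 by edgeR, 10 of the 28 passed, beside 27.7% of all genes. Scara5, a receptor that takes up ferritin, rose most: it ran from 1.15 to 9.97 CPM in IgG2a and 2.08 to 8.94 in PD-1, and from 32.5 to 92.2 in BRQ+IgG2a and 10.4 to 62.9 in BRQ+PD-1. Every brequinar tumour lay above every tumour without it, and the main effect was 3.51 ± 0.37 on the log2 scale (adjusted p = 7.69e-06 by edgeR). Fibroblasts and other stromal cells also express Scara5; the 8 fibroblast markers summed to 5531 to 12414 CPM with brequinar and 7379 to 13927 without, and their part in the result was not tested.

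Trf, the plasma iron carrier transferrin, rose by 1.13 ± 0.21 (adjusted p = 0.00163 by edgeR), from a mean of 96.3 to 216 CPM. Slc11a1, a metal transporter of phagocyte lysosomes, rose by 0.75 ± 0.19 (adjusted p = 0.0119), with 12 of 12 brequinar tumours above the mean of the others. The 12 macrophage markers summed to 1804 to 4913 CPM with brequinar and 2020 to 3805 without. Taken singly, 10 of the 12 had a positive main effect (median 0.26), beside 51.2% of all genes tested, and their part in the Slc11a1 result was not tested. Hfe, which binds the transferrin receptor, rose by 0.37 ± 0.10 (adjusted p = 0.0198). Lrp1, an endocytic receptor that takes up haemopexin-bound haem, rose by 0.44 ± 0.13 (adjusted p = 0.0296), but it was not called without the muscle-rich tumours (0.34, adjusted p = 0.143), and its call held in 18 of 24 fits without 1 library.

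Pcbp1, an iron chaperone that delivers iron to ferritin, fell by 0.24 on the log2 scale (SE 0.05, adjusted p = 0.00227 by edgeR). Its 12 brequinar tumours ran from 259 to 343 CPM and the 12 others from 349 to 428, so that the groups did not overlap, which held for 0.143% of all genes tested. Cd163, the haemoglobin scavenger receptor of macrophages, was lower by -1.98 ± 0.52 (adjusted p = 0.0161). Without PD-1 replicate 6, a muscle-rich tumour at 77.0 CPM, that value was -1.18, still called. Bach1, the repressor that competes with NFE2L2 at haem and antioxidant genes, rose by 0.42 ± 0.08 (adjusted p = 0.0017) with 12 of 12 tumours above the mean of the others, the only called gene of 24 tested in the NRF2 list. Nfe2l1, the most abundant of that list, had means of 505, 487, 466 and 518 CPM in IgG2a, PD-1, BRQ+IgG2a and BRQ+PD-1.

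**Figure D3:**
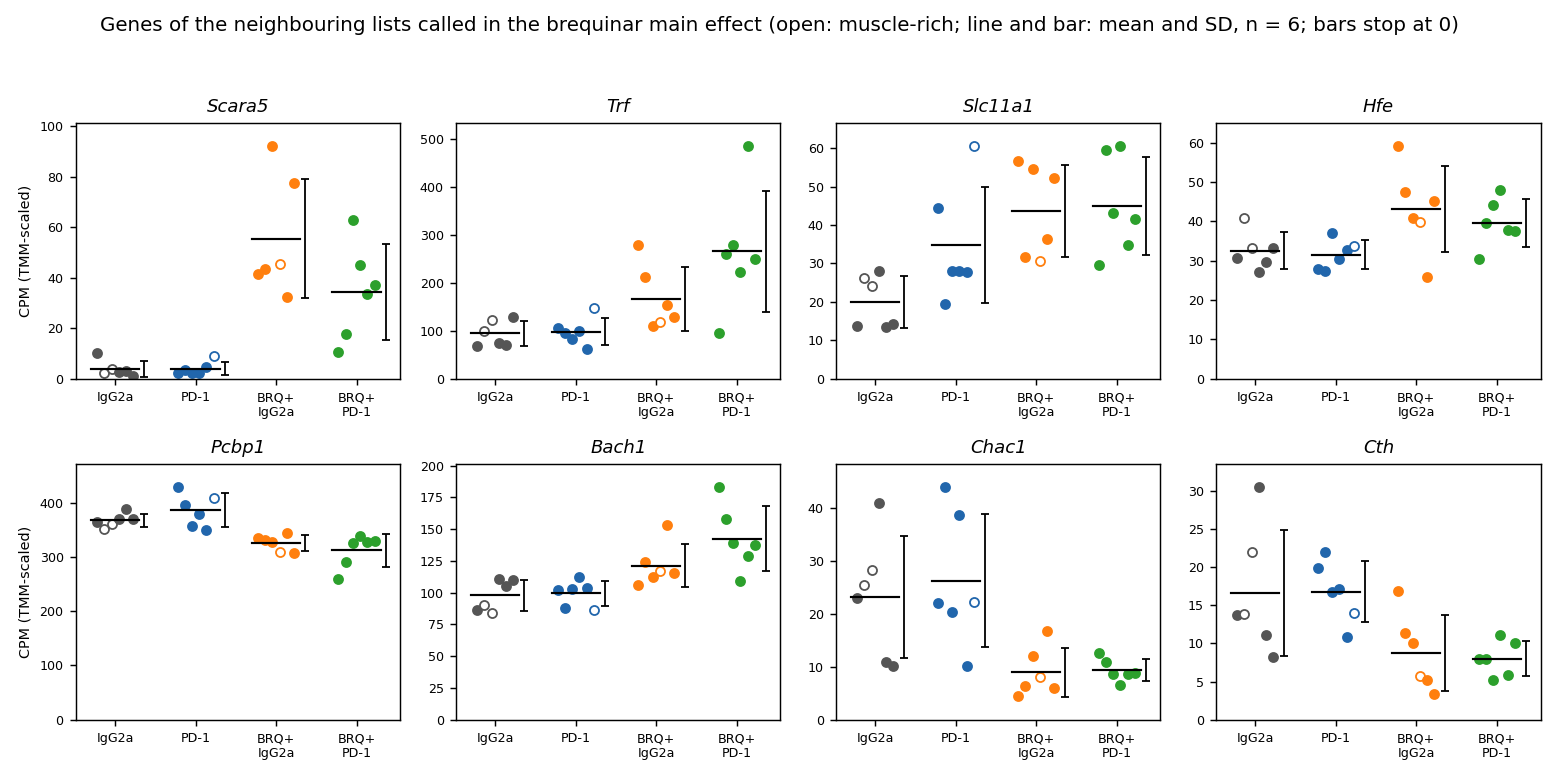
CPM (linear axis from 0) per tumour of 8 genes of the neighbouring lists called in the brequinar main effect, with the mean and SD of 6 tumours per group; open points are muscle-rich tumours. Scara5 lies at 1.15 to 9.97 CPM without brequinar and at 10.4 to 92.2 CPM with it, and the Pcbp1 values of the tumours with and without brequinar do not overlap.

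Between pairs of groups, Scara5 rose in BRQ+IgG2a against IgG2a (3.89 ± 0.53, adjusted p = 0.000414 by edgeR), in BRQ+PD-1 against IgG2a (3.20 ± 0.52, adjusted p = 0.0021) and in BRQ+PD-1 against PD-1 (3.14 ± 0.52, adjusted p = 0.00228). BRQ+PD-1 tumours had more Trf than IgG2a tumours (1.50 ± 0.30, adjusted p = 0.00768) and than PD-1 tumours (1.43 ± 0.30, adjusted p = 0.00973). Bach1 was higher in the same 2 comparisons (0.54 ± 0.11, adjusted p = 0.00823, and 0.52 ± 0.11, adjusted p = 0.0109). Slc11a1 exceeded its IgG2a level both in BRQ+IgG2a (1.13 ± 0.27, adjusted p = 0.0183, holding in 8 of 12 fits without 1 library) and in BRQ+PD-1 (1.17 ± 0.27, adjusted p = 0.0178). BRQ+PD-1 tumours had less Pcbp1 than PD-1 tumours (-0.31 ± 0.07, adjusted p = 0.0116) and than IgG2a tumours (-0.24 ± 0.07, adjusted p = 0.0490), the latter call holding in 3 of 12 fits without 1 library. Without the muscle-rich tumours the calls against IgG2a were lost for Bach1 (0.44, adjusted p = 0.0583) and Pcbp1 (-0.27, adjusted p = 0.0762). These comparisons share control samples. No gene of the 5 lists was called for PD-1 against IgG2a, for BRQ+PD-1 against BRQ+IgG2a or in the interaction. At an unadjusted p under 0.05, edgeR passed 1 of 28 iron genes in each of those 3 comparisons, where 6.46%, 7.29% and 7.62% of all genes passed.

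Among tumours of the same group, several of the 10 genes moved together or in opposite directions. Relations were taken over the 24 tumours as deviations of log2 CPM from the group mean, so that treatment did not enter them, and were tested by permutation within groups for all 45 pairs. Of these, 13 had an adjusted p under 0.05 for Spearman's rho, 7 positive and 6 negative. All values of a tumour come from 1 library, and the tissue mixture of that library is shared by every pair.

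Fth1 and Ftl1 gave the strongest relation, with r = 0.93 (permutation p = 1e-05, the smallest the resamples can give, adjusted 0.000225) and rho = 0.90 (p = 2e-05, adjusted 0.0009). It was r = 0.86 without the 2 tumours farthest in Fth1. Slc7a11 rose with Fth1 (r = 0.87, p = 9e-05, adjusted 0.00081; rho = 0.75, p = 0.00019, adjusted 0.00142), and r was 0.72 without its 2 highest tumours. Slc7a11 and Ftl1 (rho = 0.57, adjusted permutation p = 0.0295) and Slc7a11 and Gch1 (rho = 0.55, adjusted permutation p = 0.0288) were weaker, with r of 0.48 and 0.40 without the 2 farthest tumours. Acsl4 rose with Nfe2l2 (rho = 0.73, adjusted permutation p = 0.00142) and with Gch1 (rho = 0.56, adjusted permutation p = 0.0288). Lpcat3 rose with Tfrc (rho = 0.65, adjusted permutation p = 0.0280).

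Lpcat3 and the ferritin genes went opposite ways. Lpcat3 against Ftl1 had r = -0.86 (permutation p = 1e-05, adjusted 0.000225) and rho = -0.79 (p = 4e-05, adjusted 0.0009), and against Fth1 r = -0.81 and rho = -0.75 (adjusted permutation p = 0.00142). Tfrc, the uptake receptor, also ran against the ferritin transcripts, while ferritin protein and iron were not measured. Tfrc against Fth1 had rho = -0.60 (adjusted permutation p = 0.0288) and against Ftl1 rho = -0.56 (adjusted permutation p = 0.0412). Their Pearson r of -0.47 and -0.51 had adjusted permutation p of 0.0926 and 0.0824. Aifm2 ran against Nfe2l2 (rho = -0.73, adjusted permutation p = 0.00142) and Acsl4 (rho = -0.54, adjusted permutation p = 0.0288). No relation of Gpx4 with the other 9 had an adjusted permutation p for rho under 0.05, the nearest being Acsl4 (rho = -0.50, adjusted 0.0594); its r of 0.52 with Aifm2 was 0.25 without the 2 tumours farthest in Gpx4.

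**Figure D4:**
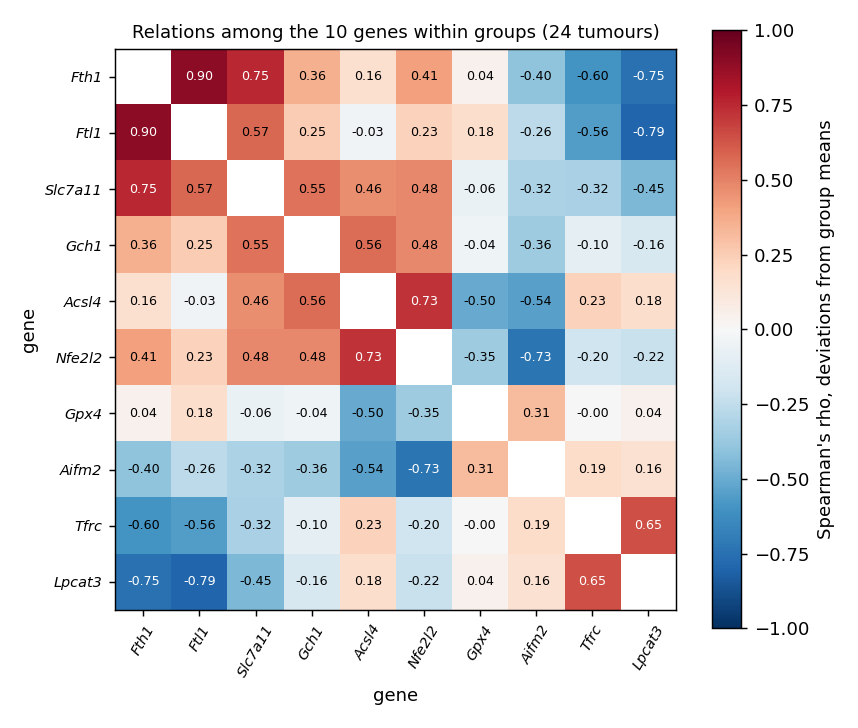
Spearman's rho between the 10 genes over 24 tumours, as deviations of log2 CPM from the group means; red is positive and blue negative. Fth1, Ftl1 and Slc7a11 form the positive corner (0.57 to 0.90), and Lpcat3 and Tfrc are negative to both ferritin genes (-0.56 to -0.79).

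The same relations were set against the summed markers lists, 12 of cell types and 1 of proliferation, 130 relations in all, of which 24 had an adjusted permutation p under 0.05 for rho. The 10 proliferation genes, which summed to 730 to 2029 CPM per tumour, ran against ferritin: rho was -0.79 with Fth1 (r = -0.83, adjusted permutation p = 0.0048) and -0.79 with Ftl1 (r = -0.83, adjusted permutation p = 0.0032), and 0.80 with Lpcat3 (r = 0.80, adjusted permutation p = 0.0026). Without the muscle-rich tumours rho was -0.82, -0.82 and 0.87, and without the 2 tumours farthest in the gene r was -0.76, -0.78 and 0.84. Skeletal muscle markers ran the same way, with rho of 0.69 for Lpcat3 (adjusted permutation p = 0.0102), -0.62 for Ftl1 (adjusted permutation p = 0.0188) and -0.59 for Fth1 (adjusted permutation p = 0.0227). Among the 20 tumours that were not muscle-rich, these were 0.71, -0.66 and -0.70. Macrophage markers ran against Slc7a11 (rho = -0.71, adjusted permutation p = 0.0100), Acsl4 (rho = -0.66), Nfe2l2 (rho = -0.60) and Gch1 (rho = -0.56). T cell markers ran against Nfe2l2 (rho = -0.71, adjusted permutation p = 0.0082) and Acsl4 (rho = -0.60). Gch1 rose with endothelial markers (rho = 0.66, adjusted permutation p = 0.0082), and Aifm2 with fibroblast markers (rho = 0.56, adjusted permutation p = 0.0307). Fibroblast markers ran against Nfe2l2 (rho = -0.64), Fth1 (rho = -0.61) and Slc7a11 (rho = -0.60), with adjusted permutation p of 0.0188 to 0.0233. Nfe2l2 rose with the melanocyte list (rho = 0.72, adjusted permutation p = 0.0082), which here was nearly Mitf alone. Gch1 (rho = 0.63, adjusted permutation p = 0.0206) and Acsl4 (rho = 0.60, adjusted permutation p = 0.0292) rose with that list too. Gpx4 rose with B cell and adipocyte markers (rho = 0.63 each), where rho was 0.20 each without the muscle-rich tumours. B cell markers ran against Nfe2l2 (rho = -0.62, adjusted permutation p = 0.0188) and Acsl4 (rho = -0.53, adjusted permutation p = 0.0487). Without the muscle-rich tumours these were -0.59 and -0.51. Without the 2 tumours farthest in the gene, r was -0.63 for Slc7a11 with macrophage markers, -0.59 for Nfe2l2 with T cell markers and 0.63 for Gch1 with endothelial markers. The part of cell mixture or proliferation in the relations among the 10 genes, and in their fold changes between groups, was not tested.

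**Figure D5:**
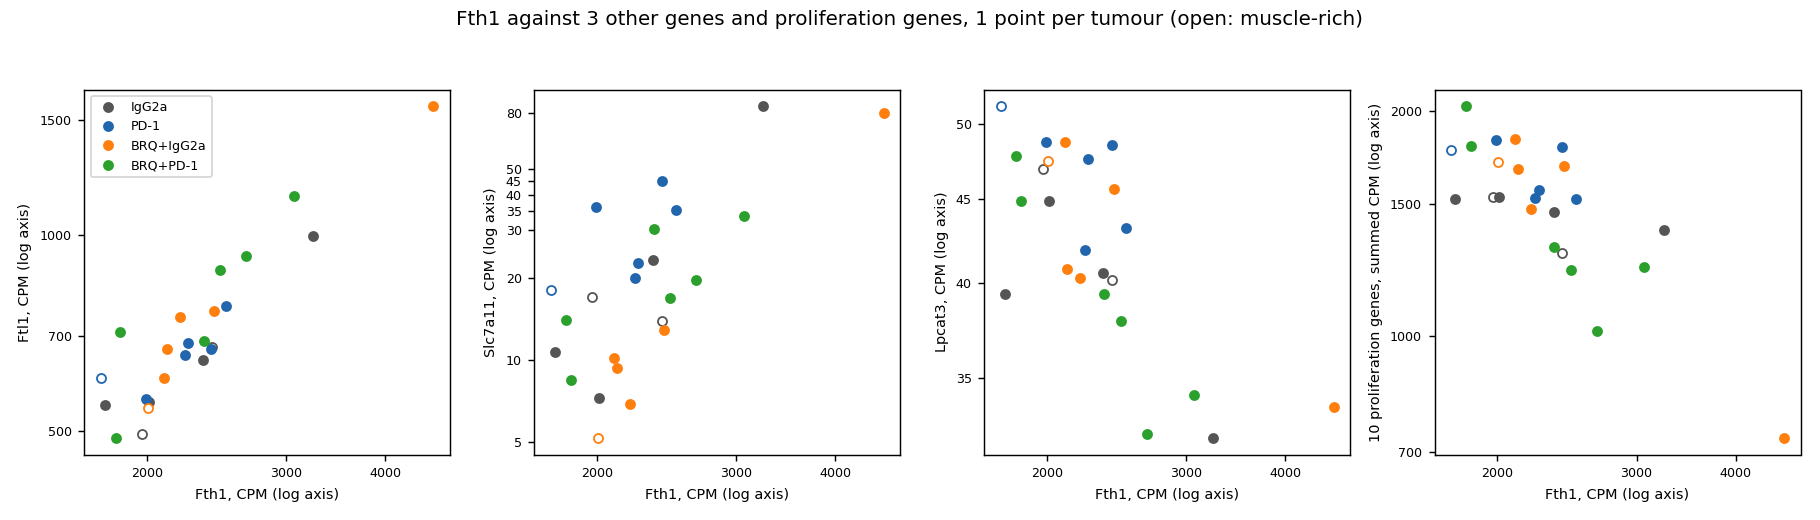
Fth1 CPM on the horizontal axis against Ftl1, Slc7a11, Lpcat3 and the summed CPM of 10 proliferation genes, all on log axes, 1 point per tumour coloured by group (open: muscle-rich). Ftl1 and Slc7a11 rise with Fth1 while Lpcat3 and proliferation genes fall, and the tumour at the far right (4604 CPM of Fth1, 730 CPM of proliferation genes) is BRQ+IgG2a replicate 5.

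BRQ+IgG2a replicate 5 and IgG2a replicate 4 stood at the same end of these relations. Replicate 5 of BRQ+IgG2a had 4604 CPM of Fth1, 1574 of Ftl1, 79.9 of Slc7a11 and 23.6 of Gch1, each the highest or next to highest of all 24 tumours. It also had the lowest proliferation sum (730 CPM, the others 1015 to 2029), the lowest macrophage sum (1804 CPM) and 41.9 CPM of Mitf. IgG2a replicate 4 had 3245 CPM of Fth1, 84.7 of Slc7a11 and the lowest Lpcat3 (32.2 CPM), with a proliferation sum of 1387 CPM. Without both, a choice made after seeing the data, 0 of the 10 genes were called in any of the 7 comparisons. Without the 4 muscle-rich tumours, 1 was called, Aifm2 in the main effect.

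Relations were also taken between the 10 genes and their pathway lists. Of 930 relations between the 10 genes and the genes of the 5 lists, 185 had an adjusted permutation p under 0.05 for rho, 122 positive and 63 negative. Fth1 ran against Lpcat1, another lysophospholipid acyltransferase (rho = -0.89, r = -0.91), and rose with Sat1, a polyamine acetyltransferase (rho = 0.85, r = 0.84). Lpcat3 rose with Cd163 (rho = 0.83, r = 0.72). Nfe2l2 rose with the prostaglandin synthase Ptgs2 (rho = 0.88, r = 0.92) and the ferroxidase Cp (rho = 0.83, r = 0.92), and Aifm2 ran against Ptgs2 (rho = -0.64, r = -0.61). Gpx4 rose with the iron-sulfur cluster enzyme Nfs1 (rho = 0.88, r = 0.89), Gch1 with Prdx6 (rho = 0.80, r = 0.70), Acsl4 with the ether lipid enzyme Agps (rho = 0.77, r = 0.77), Slc7a11 with the reductase Cyb5r1 (rho = 0.81, r = 0.88) and Tfrc with Cd163 (rho = 0.68, r = 0.56). These relations were chosen for a large rho after the values were seen, and their adjusted permutation p for rho lay between 0.0019 and 0.0134.

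Among 10763 named genes with a mean of at least 5 CPM, those most like each of the 10 over the 24 tumours, by the same rho, were found as a description. Fth1 was nearest to the spermine oxidase Smox (rho 0.91), Ftl1 (0.90) and the stress factor Ddit3 (0.89), and Ftl1 to Smox (0.90), Fth1 (0.90) and Hilpda (0.88), a lipid droplet protein. Smox had 102 CPM in BRQ+IgG2a replicate 5 and 59.1 in IgG2a replicate 4, and 28.4 to 59.4 in the other 22. Slc7a11 was nearest to Vldlr (0.88), Ghitm (0.87) and Akirin2 (0.87), and Nfe2l2 to Ereg (0.94), Nedd9 (0.94) and Map4k3 (0.93). For Acsl4 they were Ttc37 (0.91), Papola (0.90) and Prkaa1 (0.89), and for Lpcat3 Itga3 (0.91), Polq (0.89) and Fignl1 (0.88). Gpx4 was nearest to its pseudogene Gpx4-ps2 (0.92), then Ndufa11 (0.91) and Atp5g2 (0.90). Tfrc was nearest to Wdr12 (0.85), Tlr8 (0.83) and Ms4a6d (0.78), Gch1 to Sec13 (0.83), Strap (0.81) and Usp39 (0.80), and Aifm2 to Dtx4 (0.81), Pstk (0.75) and Rida (0.70). The ranking changed when the muscle-rich tumours were left out. All 3 names were then replaced for Aifm2, Acsl4, Gch1 and Lpcat3, while Fth1 and Ftl1 kept Smox and Fth1 respectively among their 3. The names replaced for those 4 genes still had rho of 0.64 to 0.90 without these tumours.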

How the data were processed

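RNA from 24 tumours, 1 library each, was measured. Per the labels' protocols, it was extracted with RNeasy kits, checked on a TapeStation and sequenced by Novogene. HISAT2 2.2.1, StringTie 2.2.1, Trim Galore 0.6.7, MultiQC 1.11 and FastQC 0.11.8 and the build GRCm39 stand in the submitters' processing notes. The counting program, annotation and strand setting were not given in the sources used here. Per the file headers, the deposited table holds raw counts per Ensembl gene, not normalized. The deposited FPKM and TPM tables hold none of the 10 genes and entered no comparison. Symbols and merged exon lengths came from GENCODE M21 by Ensembl ID, with no coordinates taken from it.

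Counts were tested with edgeR 4.0.16 in R 4.3.3 (TMM, filterByExpr by group, robust quasi-likelihood F test, 1 fit of 24 libraries on group alone, leaving 20 residual degrees of freedom). Adjustment was Benjamini-Hochberg's over 16029 genes, with calls at an adjusted p under 0.05. Errors are SE for log2 fold changes and SD for CPM. For relations, log2 CPM (prior count 2) was permuted 100000 times within groups, two-sided, with adjustment within each family. The test was checked on simulated data. Replicates of a group differed by 9.18 to 219 times the sampling noise over 60 pairs, so none was counted as a copy.

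Named were the 10 genes and Dhodh; up to 4 called genes of each list by adjusted p in each comparison, or the most abundant of a list without one; the 3 genes most like each of the 10; and Acta1, whose level over 1000 CPM marked the muscle-rich libraries. Outside this rule, Hfe, Cd163, Lrp1, Acsl1 and the pathway genes given with a rho were named after their values were seen. The 10 genes, the lists and the rule were chosen with earlier results of these data known. As alternatives served DESeq2 1.42.0, limma 3.58.1 voom with quality weights, RLE factors in edgeR, all genes unfiltered, a replicate block, no robust dispersion, only the groups compared, and fits without the muscle-rich libraries or each library in turn; a fit without 2 libraries was added after seeing the data. Overlapping and antisense genes cannot be told apart without the strand setting.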

Additional observations from a re-analysis of the deposited data

Results flagged for a closer look

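In 10 of 40 groups of 6 tumours (10 genes in 4 groups), 1 tumour lay far from the others. Its gap to the nearest was past the 95% critical value of Dixon's ratio. BRQ+IgG2a replicate 5 was that tumour for Slc7a11 (79.9 CPM, the next 12.9), Fth1 (4604, the next 2431), Ftl1 (1574, the next 763), Gch1 (23.6, the next 8.75), Acsl4 (184, the next 131) and Nfe2l2 (282, the next 197), so 1 library holds 6 of the 10. IgG2a replicate 4 was set apart for Slc7a11 (84.7 CPM, the next 23.3) and Ftl1 (997, the next 673). IgG2a replicate 3, a muscle-rich tumour, was highest for Aifm2 (22.3 CPM, the next 17.2), and IgG2a replicate 1 for Tfrc (182 CPM, the next 121).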

How the results depend on the processing

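Of 1690 recomputed fold changes of the 10 genes, 10 were called and 117 changed sign, none of these being called. With limma voom and quality weights the number called was 1 in BRQ+IgG2a against IgG2a (Aifm2, 0.27), 1 in BRQ+PD-1 against IgG2a (Ftl1, 0.54), 2 in BRQ+PD-1 against PD-1 (Lpcat3, -0.31, and Ftl1, 0.45), 1 in BRQ+PD-1 against BRQ+IgG2a (Nfe2l2, 0.40) and 2 in the main effect (Aifm2 and Ftl1). It was 1 in the main effect without the muscle-rich libraries, and 0 to 1 when each library was left out in turn: Aifm2 without IgG2a replicate 3 and Slc7a11 without BRQ+IgG2a replicate 5. The main effect of Nfe2l2 turned to -0.0088 with no expression filter, -0.077 by limma voom, -0.059 without the muscle-rich libraries, -0.032 without the 2 libraries highest in Slc7a11, and -0.066 to 0.053 with each library left out in turn. That of Acsl4 turned to -0.026 by limma voom, and that of Gch1 to 0.018 without the muscle-rich libraries and -0.286 to 0.036 with each library left out in turn. The cause was not tested.

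No pairing of the tumours by replicate number was seen. Over 36 pairs of like-numbered tumours the correlation of deviations ran from -0.64 to 0.44, with 15 over 0.1. Of these pairs, 4 matched best with their own number. Such correlations over all genes tested cannot show a weak pairing. With the replicate block, 0 of the 10 genes were called in any comparison, and all genes called were 361, 0, 285, 411, 0, 1412 and 0, in the order BRQ+IgG2a, PD-1 and BRQ+PD-1 against IgG2a, BRQ+PD-1 against PD-1 and against BRQ+IgG2a, main effect and interaction. The corresponding counts were 554, 3, 627, 808, 0, 2001 and 0 without the block, 888, 27, 1540, 1406, 4, 2651 and 11 by DESeq2, 2113, 9, 1455, 2194, 620, 3797 and 272 by limma voom, and 377, 0, 297, 431, 0, 1379 and 0 with no expression filter. Fits of only the groups compared gave 337, 4, 371, 360 and 0 for the first 5, and fits without the muscle-rich libraries 657, 2, 404, 502, 0, 1642 and 1. Without the 2 libraries highest in Slc7a11 they were 829, 0, 903, 1037, 44, 2238 and 0. The 95% interval of Slc7a11 in the main effect spanned 0.383-fold to 1.42-fold, the widest of the 10 genes.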
